A study of Mus musculus with 6 samples.

Results

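The genes of the major histocompatibility complex (MHC) and of antigen presentation were examined in poly(A)-selected RNA of mouse RPE/choroid, the retinal pigment epithelium with the vascular layer beneath it. They were chosen by name, as every gene with a symbol starting with H2- other than those ending in -ps, together with 13 named genes of the pathway. Of the 33924 genes in the table, 52 met this rule, and 41 of them had a mean normalized count of at least 10, as did 18479 genes in all. The tissue came from C57BL/6J mice, 3 young and 3 aged, with no allele or treatment added in either group. The labels give 1 to 2 months for the young mice, and the text of the study gives a slightly higher age. For the aged mice the titles give 20 to 24 months and the age field gives 22 to 24 months. Both eyes of a mouse were pooled in each sample, and the labels list all mice as male, whereas the methods of the study name both sexes. The study compared young with aged mice, but the value used here is a mean over the 6 libraries of both ages, so no difference with age is reported. No value per library was analysed here. The spread between mice is therefore unknown, neighbours in the order of levels cannot be told apart, and no test was possible.

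MHC class I molecules are made of a heavy chain and beta-2 microglobulin, and present peptides from inside the cell to CD8+ T cells. The peptides are cut by proteasomes, carried into the endoplasmic reticulum by the Tap transporter, trimmed by Erap1 and loaded with the help of tapasin. MHC class II molecules are made of an alpha and a beta chain, travel with the invariant chain Cd74, and present peptides from endosomes to CD4+ T cells. Class I is made by most cells with a nucleus, whereas class II is made mainly by dendritic cells, macrophages and B cells. Interferon gamma can induce both classes, through Nlrc5 for class I and Ciita for class II, which act with Rfx5 and other factors bound to the promoters.

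The promoters of 5 class I heavy chain genes, singled out after the matches were seen, carried a shared arrangement of short motifs. It is shown here for the 4 genes whose stretch lies outside annotated mRNA of the gene. The sequences are RefSeq's, from GRCm38.p6, written 5′ to 3′ in the direction of the gene. Capitals mark matches to GGGANTNCC, to GAANNGAAA read on the opposite strand, to TGACG, and to CCAAT read on the opposite strand as ATTGG.
H2-K1, chr17:34000349-34000467, minus strand: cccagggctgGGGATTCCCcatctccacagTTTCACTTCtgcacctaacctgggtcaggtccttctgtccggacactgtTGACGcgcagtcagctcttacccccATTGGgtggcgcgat
H2-Q4, chr17:35379434-35379558, plus strand: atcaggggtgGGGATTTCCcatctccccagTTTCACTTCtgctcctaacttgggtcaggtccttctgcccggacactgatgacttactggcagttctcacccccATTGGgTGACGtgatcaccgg
H2-Q6, chr17:35424668-35424785, plus strand: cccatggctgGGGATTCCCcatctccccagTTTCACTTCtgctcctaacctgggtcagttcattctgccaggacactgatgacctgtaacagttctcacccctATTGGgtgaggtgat
H2-Q7, chr17:35439013-35439129, plus strand: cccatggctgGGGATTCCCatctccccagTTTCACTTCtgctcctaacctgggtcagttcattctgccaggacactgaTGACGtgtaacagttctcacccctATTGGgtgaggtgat

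From the start of GGGANTNCC to the start of ATTGG, the distance was 94 bases in H2-K1, 94 bases in H2-Q4, 93 bases in H2-Q6 and 92 bases in H2-Q7. H2-D1 had the same letters in the same order, again with 94 bases between these motifs. Its stretch was compared but is not printed, because a transcript of GENCODE M21 places it inside the first exon of the gene. All of the H2-Q4 stretch is covered by an exon of Gm11131, an antisense transcript on the other strand. Between ATTGG and the GAANNGAAA match, H2-K1, H2-D1 and H2-Q7 carried TGACG. H2-Q4 carried it on the other side of ATTGG, and H2-Q6 did not carry these letters in the window. The stretches of H2-Q6 and H2-Q7 were identical at 116 of 118 aligned bases (98.3%), and those of H2-K1 and H2-D1 at 107 of 119 (89.9%). Per kb of the longest annotated transcript, the authors' mean normalized count was 21259 for H2-D1, 10287 for H2-K1, 1110 for H2-Q4, 564 for H2-Q6 and 185 for H2-Q7, a ratio of 115 between the first and the last. With the median transcript length this ratio was 149, and with the coding length 52.9.

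The promoters of the light chain gene B2m and of the class II genes H2-Aa and H2-Eb1 are shown for comparison. B2m carried TGACG before ATTGG, as did H2-Aa, which also carried GGGANTNCC. Of the letters searched, H2-Eb1 carried only CCAAT, on both strands. In H2-Aa the capitals TGACGTCA hold TGACG on both strands. In H2-Eb1 the second run of capitals is CCAAT on the strand shown.
B2m, chr2:122147599-122147648, plus strand: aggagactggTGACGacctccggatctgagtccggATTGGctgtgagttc
H2-Aa, chr17:34287857-34287964, minus strand: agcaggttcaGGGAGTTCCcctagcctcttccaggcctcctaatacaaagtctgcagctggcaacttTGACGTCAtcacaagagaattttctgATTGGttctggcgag
H2-Eb1, chr17:34305798-34305846, plus strand: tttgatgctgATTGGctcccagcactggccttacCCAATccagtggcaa

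Each motif was searched on both strands in the window from 250 bases before to 50 bases after the start, for the 28 members with an entry and for 27025 genes in all. CCAAT was in 23 of the 28 members (82.1%) and in 41.1% of all genes. TGACG was in 11 members (39.3%) and in 23.0% of all genes. The 28 members include H2-Ke2 and H2-Ke6, which encode no MHC protein. H2-Ke6 is among those with CCAAT and H2-Ke2 among those with TGACG. GAANNGAAA was in 8 members (28.6%), against 8.68% of all genes, and GGGANTNCC was in 7 members (25.0%), against 4.57%. TTCNNNGAA was in 2 members (7.14%), against 9.55%. A window with GGGANTNCC, GAANNGAAA and CCAAT together, a combination chosen after the matches were seen, was found in 6 members and in 32 of all genes (0.118%). These 6 members were H2-D1, H2-K1, H2-Q4, H2-Q6, H2-Q7 and H2-M2. H2-M2 carried all of these letters, but not in the arrangement printed above. Its CCAAT match was on the strand of the gene, at -84 from the start, and not as ATTGG. Its TGACG match, at -236, lay before its GGGANTNCC matches at -179 and -165. The level of H2-M2 was 63.4 per kb. H2-D1 stood 335 times higher with the longest transcript, 1154 times with the median length and 431 times with the coding length. No promoter entry was used for H2-Ab1 or Tap2, and many members share ancestry, so their promoters are not independent of each other.

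The heavy chains of classical class I and beta-2 microglobulin had the highest levels among the members. H2-D1 (ENSMUSG00000073411, chr17:35262730-35267499) had a mean normalized count of 44686, B2m (ENSMUSG00000060802, chr2:122147686-122153083) had 27583 and H2-K1 (ENSMUSG00000061232, chr17:33996017-34000347) had 19277. These 3 genes held 61.6% of the members' counts, and the members together held 0.364% of the counts of the table. Per kb of the longest transcript, the scale used for ratios of levels between genes, B2m was at 32073 and the sum of H2-K1 and H2-D1 at 31545, a ratio of 1.02. With the median length of each gene's transcripts this ratio was 0.314, and with the coding length 1.32, so B2m was above the 2 heavy chains on some scales and below them on another. H2-D1 stood above H2-K1 on each of the 3 scales, by 2.07 times, 3.56 times and 2.36 times. Over all 16 class I heavy chain genes with a length and a mean of at least 10, the ratio of B2m to the heavy chains was 0.826. It was 0.285 with the median length and 1.03 with the coding length, which H2-K2 lacks.

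**Figure D1:**
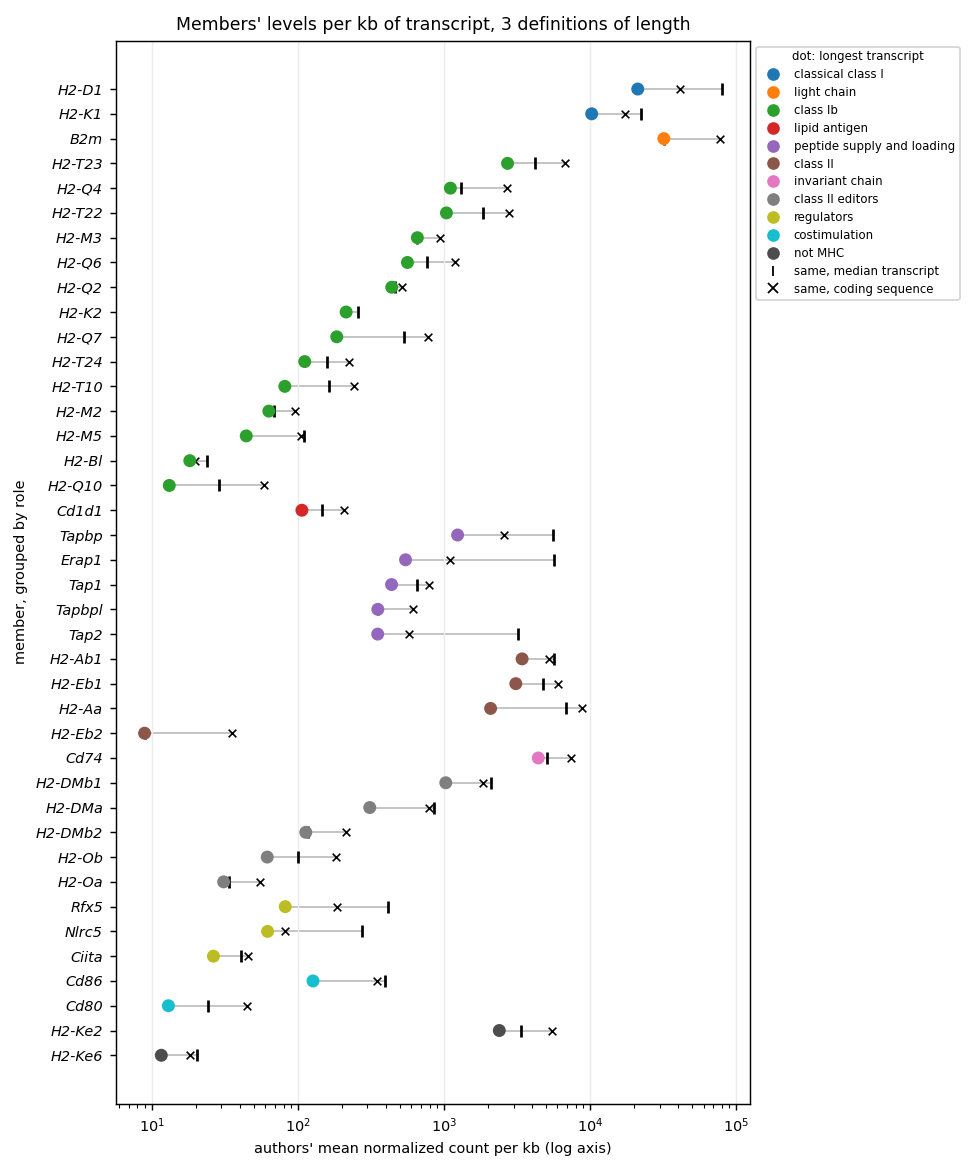
Authors' mean normalized count per kb on a log axis for the 40 members with a mean of at least 10 and a transcript length, grouped and coloured by role. Dots use the longest transcript, bars the median transcript and crosses the coding sequence, and no error can be drawn because each value is already a mean over 6 libraries. B2m, H2-D1 and H2-K1 lie at 10287 per kb or more, while H2-Eb2 lies lowest at 8.95 per kb.

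The nonclassical class I genes (class Ib) made up 26 of the 52 genes. Of these, 15 had a mean normalized count of at least 10, 12 at least 100, and 5 were listed at 0. H2-T23, which encodes the Qa-1 molecule that displays leader peptides of other class I chains, was the highest, with a count of 7214 and a level of 2731 per kb. H2-T22, whose product is a ligand of some gamma delta T cells, followed among the H2-T genes with a count of 3192 and a level of 1042 per kb. H2-Q4 had a count of 2880 and a level of 1110 per kb. Lower came H2-Q6 with a count of 1176, H2-M3, which presents formylated bacterial peptides, with 948, H2-Q7, part of the Qa-2 antigen, with 779, and H2-Q2 with 556. Their levels per kb ranged from 185 for H2-Q7 to 659 for H2-M3.

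The counts of the other class Ib members over 100 were 336 for H2-K2, 277 for H2-T10, 244 for H2-T24, 151 for H2-Q8 and 109 for H2-M5. The annotation lists H2-K2 as a transcribed pseudogene and both H2-T10 and H2-Bl as polymorphic pseudogenes, which are coding in some strains and not in others. H2-M2 had 98.3, H2-Q10, known for a secreted class I molecule made in liver, had 57.2, and H2-Bl had 20.8. H2-Q8 had no entry in the annotation, so it has no position or level per kb here. Among the genes under the minimum of 10, the highest were H2-T3 with 2.06, H2-M9 with 1.70 and H2-M10.2 with 1.69. H2-T9, H2-M1, H2-M10.3, H2-M10.5 and H2-M10.6 were listed at 0. At the other edge of the minimum, the lowest genes kept were H2-Ke6 with 15.1, H2-Bl with 20.8 and H2-Eb2 with 30.4.

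Of the members, 40 lie on chromosome 17, and 30 of these had a mean of at least 10. Ordered by position, the genes under 10 that have a position formed an unbroken row of 10 genes, from H2-T3 to H2-M10.6, with no member of at least 10 among them. The members on either side of this row were H2-T10 and H2-M5. The class II genes H2-Ab1, H2-Aa and H2-Eb1 stood next to each other, and H2-Eb2, the next member along, was far lower. H2-K1 and H2-D1 lay on opposite sides of the class II genes.

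**Figure D2:**
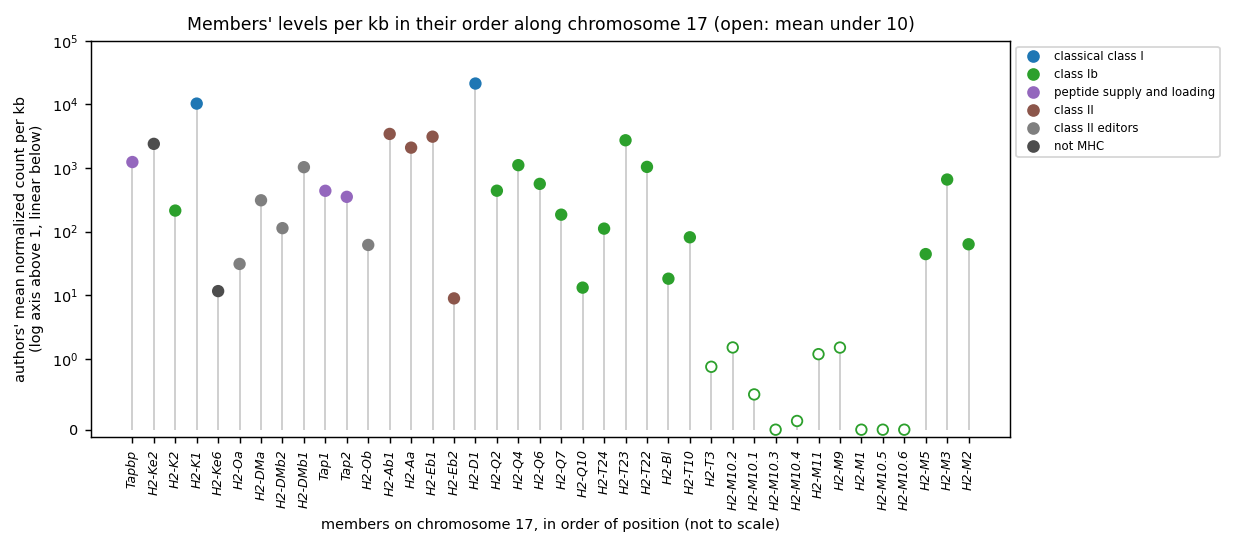
Authors' mean normalized count per kb of the longest transcript (log axis above 1, linear below) for the 40 members on chromosome 17 in their order, not to scale, coloured by role. Open circles are members with a mean normalized count under 10, which form 1 row of 10 genes between H2-T10 and H2-M5.

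Genes of peptide supply and loading for class I lay below the classical heavy chains. Tapbp, which encodes tapasin, had 3600 normalized counts on average and 1242 per kb. Erap1, the aminopeptidase that trims peptides, had 3088 and 547 per kb. The transporter subunits were at 1716 and 439 per kb for Tap1 and at 1214 and 353 per kb for Tap2. Tapbpl, a relative of tapasin that edits peptides, had 832 and 354 per kb. Tapbp was thus 2.83 times as high as Tap1 per kb, or 8.53 and 3.26 times with the median and the coding length. The ratio of Tap1 to Tap2 was 1.24 with the longest transcript and 1.37 with the coding length, but 0.203 with the median length, since the median transcript of Tap2 is 378 bases long. Cd1d1, a class I-like molecule that presents lipids to NKT cells, had a count of 208 and a level of 107 per kb.

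Class II genes lay below the classical class I genes. The sum of H2-Aa, H2-Ab1 and H2-Eb1 per kb was 0.274 times that of H2-K1 and H2-D1, with 0.171 and 0.342 times under the median and the coding length, and 0.222 times that of all class I heavy chain genes. H2-Aa, the alpha chain of the A molecule (ENSMUSG00000036594, chr17:34282744-34287823), had a mean normalized count of 6738. Its partner H2-Ab1 (ENSMUSG00000073421, chr17:34257689-34269419) had 4163, and H2-Eb1, the beta chain of the E molecule (ENSMUSG00000060586, chr17:34305867-34316674), had 5192. Their levels were 2091 per kb for H2-Aa, 3435 per kb for H2-Ab1 and 3111 per kb for H2-Eb1. The ratio of H2-Aa to H2-Ab1 was 0.609 with the longest transcript, 1.21 with the median length and 1.68 with the coding length. The order of the alpha and beta chain thus depended on the length used, and by undivided count H2-Aa was the higher. The alpha chain of the E molecule is not made in C57BL/6 mice, and its symbol H2-Ea-ps, which the rule left out, was listed at 0. H2-Eb2 had a count of 30.4 and a level of 8.95 per kb, and H2-Eb1 stood 348 times higher per kb, or 536 and 171 times with the median and the coding length. Cd74 had a count of 6252 and a level of 4434 per kb, which was 0.513 times the sum of the 3 class II genes, or 0.293 and 0.373 times with the median and the coding length.

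The class II editors H2-DM and H2-O exchange and restrain the exchange of class II peptides. H2-DMb1 had a mean normalized count of 1448, H2-DMa had 624, H2-DMb2 had 168, H2-Ob had 165 and H2-Oa had 41.7. Per kb, H2-DMb1 was at 1032 and H2-DMb2 at 114, a ratio of 9.08 that was 17.7 with the median and 8.60 with the coding length. H2-DMa was at 311 per kb, H2-Ob at 61.9 per kb and H2-Oa at 31.1 per kb. H2-O is known mainly from B cells and some dendritic cells.

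The regulators of both classes lay at 82.2 per kb of the longest transcript or less. Nlrc5 had 471 normalized counts on average and 62.2 per kb. Ciita had 159 and 26.5 per kb, and Rfx5, a subunit of the RFX complex at the promoters, had 366 and 82.2 per kb. The ratio of Nlrc5 to Ciita was 2.35 per kb, and stayed above 1 with both other lengths, at 6.64 and 1.79. Of the costimulatory ligands of CD28, Cd86 had 323 and 127 per kb and Cd80 had 41.4 and 13.0 per kb, a ratio of 9.77 that was 16.3 with the median and 7.74 with the coding length. The 2 H2- symbols that encode no MHC protein differed widely, with counts of 2088 for H2-Ke2, which the annotation names Pfdn6 (a subunit of the chaperone prefoldin), and of 15.1 for H2-Ke6, an enzyme gene.

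Read against all genes with a mean of at least 10, the members did not stand high as a group by count. Their median was 624, against 668 for all such genes, and 20 of the 41 lay above the latter. Per kb of the longest transcript it was the other way, with a median of 332 for 40 members and 213 for the 17944 genes with a length. On that scale 9 members were at or above the percentile of 90 among all genes, namely B2m, H2-D1, H2-K1, Cd74, H2-Ab1, H2-Eb1, H2-T23, H2-Ke2 and H2-Aa, and 4 were under the percentile of 10.

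Of 33 other genes of antigen presentation, all were in the table and 32 had a mean of at least 10, the exception being Pdcd1lg2 with 5.11. Their median level was 955 per kb. The lysosomal protease Ctss, which cuts the invariant chain, was the highest of the list by count, at 49758, and per kb of the longest transcript, at 36722. Ctsl had a count of 41095 and 6663 per kb. With the median length Ctsl was the higher of the pair, at 58875.5 per kb against 36722 per kb. With the coding length Ctss was the higher, at 48639 per kb against 41013 per kb. The chaperones of class I folding in the endoplasmic reticulum were at 11232 per kb for Calr, 5381 per kb for Canx and 5266 per kb for Pdia3. Each interferon-inducible proteasome subunit was below the constitutive subunit it replaces. The ratio per kb was 0.257 for Psmb8 to Psmb5, 0.0371 for Psmb9 to Psmb6 and 0.576 for Psmb10 to Psmb7. With the median length these ratios were 0.337, 0.104 and 0.674, and with the coding length 0.522, 0.120 and 0.269, all under 1. The factors known to act at the class I and class II promoters ranged from 21.4 per kb for Irf2 to 1416 per kb for Irf1.

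The tissue held RNA of many cell types. The RPE markers Ttr, Rgr, Rpe65, Rlbp1 and Lrat were at counts from 50958 to 397586, and Best1 was at 81.8. Rod markers were at 16944 to 139449, skeletal muscle markers at 35123 to 48944 and endothelial markers at 717 to 7369. The pigment genes Mlana, Pmel, Dct and Tyr, listed as melanocyte markers, were at 25408 to 256984. The RPE is pigmented as well, so these genes do not tell melanocytes from RPE. Among cells that are known to make class II, all 6 macrophage markers lay between 1341 and 13165 and the 4 B cell markers between 22.4 and 343. The 6 dendritic cell markers lay between 54.3 and 1441. The highest of them was Itgax, followed by Zbtb46 with 624, and the rest were at 111 or less. The 5 T cell markers lay between 2.40 for Cd3e and 202 for Cd4, with Cd8a next highest at 89.4. No marker in these lists was at 0. Which cells the members' RNA came from was not tested, and in bulk tissue fewer cells of a type and less RNA per cell cannot be told apart.

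Class I genes resemble each other, and reads from shared stretches could have been divided between genes by the authors' quantification. Over words of 50 bases, 27 of the 40 members with transcripts had at least 90% of their sequence found in no other gene, and 14 had 100%, among them B2m, Cd74, H2-Ab1 and H2-Eb1. H2-D1 had 87.2% and H2-K1 90.4% own sequence. H2-T22 had 65.5%, with 31.2% of its words also in H2-T10, and H2-T10 had 67.1%. Of H2-DMb1, 22.7% was also in H2-DMb2, and 19.1% of Cd1d1 was also in Cd1d2. H2-Q6 had 68.0% own sequence and H2-Q7 73.6%. Sequence shared with genes that the annotation lacks, such as H2-Q8, was not counted, so the own shares may be too high. H2-Ke6 had 29.5%, and the other 70.5% was also in Gm20427, a transcript that overlaps it on the same strand. With words of 31 bases, the own share was 49.0% for H2-T22, 49.3% for H2-T10 and 49.7% for H2-Q6. The levels of these genes, and their ratios to each other, are uncertain, and the size of the error was not measured.

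**Figure D3:**
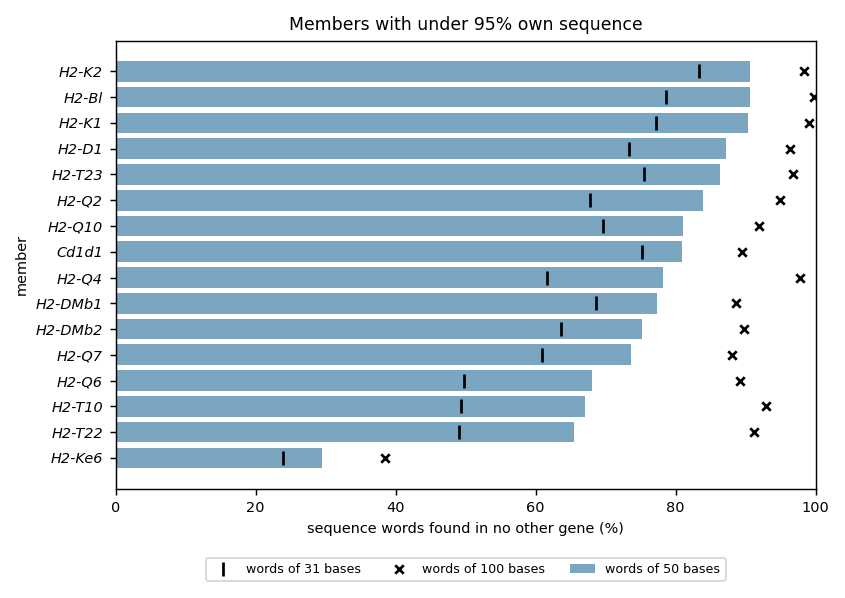
Share of each member's transcript sequence, in words of 50 bases (bars), 31 bases (vertical marks) and 100 bases (crosses), that is found in no other gene, for the members under 95% with words of 50 bases. H2-Ke6 is lowest at 29.5%, followed by H2-T22 at 65.5% and H2-T10 at 67.1%.

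The encoded proteins showed the same pairs. Proteins were taken as the longest complete annotated coding sequence of 24 members, and identity as identical residues over the length of the longer protein. H2-T22 and H2-T10, each of 379 residues, were 93.7% identical, and H2-T22 stood 12.8 times higher per kb. H2-DMb1 and H2-DMb2, each of 261 residues, were 93.1% identical. H2-Q6 and H2-Q7 were 85.6% identical, and H2-D1 with 362 residues and H2-K1 with 369 were 81.8% identical. H2-T23 was 72.1% identical to both H2-D1 and H2-K1. Over the 15 class I proteins, identity ranged from 25.1% to 93.7% with a median of 52.8%. Between class I and the 9 class II and editor proteins it ranged from 15.8% to 24.3%. Among the class II and editor proteins it ranged from 19.5% to 93.1% with a median of 25.8%, so its lower end overlapped the range between the classes. H2-Eb1 was 61.1% identical to H2-Ab1 and 60.3% to H2-Eb2, whereas H2-Aa was 48.0% identical to H2-Oa and 25.7% to H2-Ab1.

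**Figure D4:**
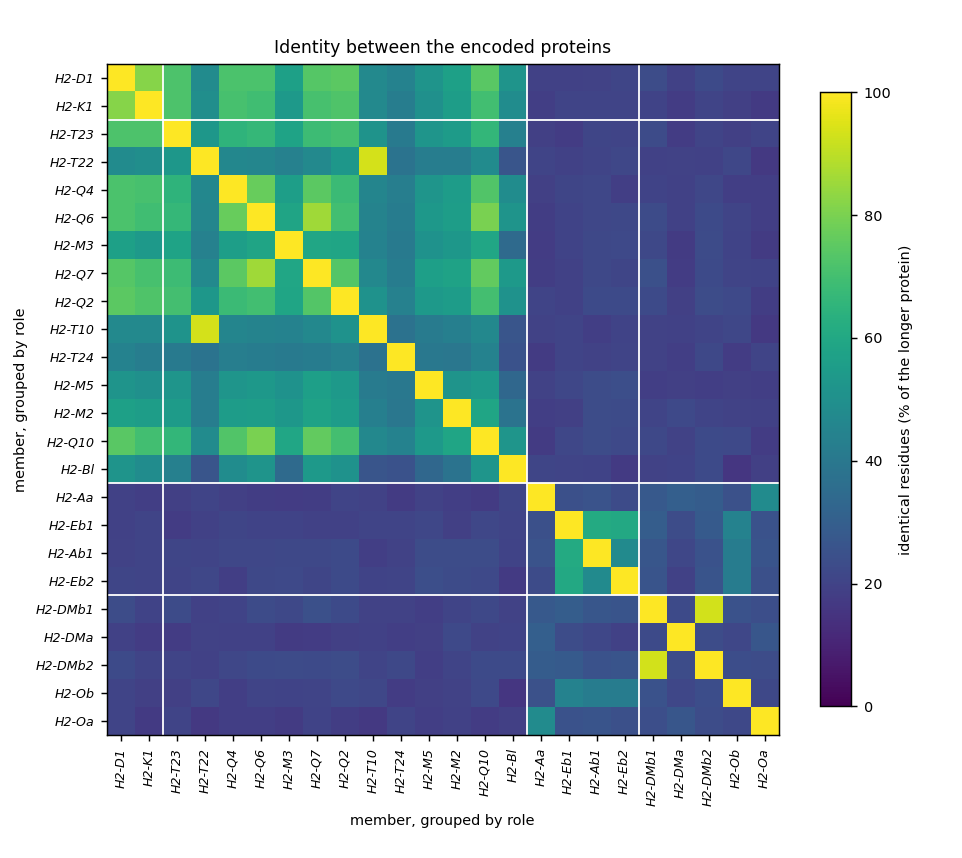
Identical residues between the proteins of 24 members, in percent of the longer protein, with members grouped by role and ordered by mean normalized count within a role. The fields between class I and class II lie at 24.3% or less, several fields within class II are as dark, and the brightest fields off the diagonal are H2-T22 with H2-T10 at 93.7% and H2-DMb1 with H2-DMb2 at 93.1%.

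Gene models of 20 members overlapped another annotated gene, 6 of them on the same strand. Erap1 overlapped Cast, Tap1 overlapped Psmb9, B2m overlapped Patl2 and H2-DMa overlapped Brd2, each on the opposite strand, and Tapbp overlapped Zbtb22 on the same strand. The library kit kept the strand of the RNA, but whether the authors' quantification used it is not given in the sources used here.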

How the data were processed

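RNA was sequenced from RPE/choroid of 3 young and 3 aged mice after rRNA depletion and poly(A) selection. According to the methods of the study, trimming by the authors used BBDuk and mapping used STAR, against Ensembl transcripts of GRCm38. Sailfish gave transcript abundances as TPM values, a unit that is already divided by transcript length. The authors turned these into normalized counts by scaling to total counts. Whether the deposited means keep that division is not stated, so the levels per kb given here may divide by length again. The authors then compared the ages with DESeq2. The deposited signal used here is the authors' mean normalized count per gene over all 6 libraries, so the depth of single libraries is unknown and no interval is given. The other columns hold the authors' own comparison of the ages (fold change, its error, a statistic and p-values) and were not used. The planned test of the ages, which needs values per library, was not run.

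Members and lists were chosen with earlier results of these data known. Levels were reported for means of at least 10 and divided by the length in kb of the longest transcript in GENCODE M21 (GRCm38). This annotation matched 97.1% of such genes by symbol or synonym, and it is not the Ensembl release that the authors name. Values were given for each member over 100, the 3 lowest kept and the 3 highest left out. Own sequence, protein identity (Biopython 1.88, BLOSUM62) and motifs were computed from GENCODE transcripts and RefSeq promoters and were checked on simulated sequences. Python 3.11.15, pandas 2.3.3, numpy 2.4.6 and matplotlib 3.10.9 were used. Alternatives were other minimums, lengths, word lengths and a shorter promoter window.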

Additional observations from a re-analysis of the deposited data

How the results depend on the processing

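The number of members reported, 41, was 45 with a minimum mean of 1, 36 with a minimum of 50, 34 with a minimum of 100 and 39 without the symbols that encode no MHC protein. The ratio of class II to class I per kb, 0.274, was 0.171 with the median transcript length, 0.342 with the coding length and 0.222 over all class I heavy chain genes. With the median transcript length, the ratio of B2m to H2-K1 plus H2-D1 fell below 1, at 0.314, and that of Tap1 to Tap2 at 0.203. The ratio of H2-Aa to H2-Ab1 rose above 1, at 1.21 with the median and 1.68 with the coding length. The other 5 of 8 ratios stayed on their side of 1. Levels per kb were 1.00 to 10.45 times as high with the median length (median 1.59) and 1.09 to 4.44 times as high with the coding length (median 2.00), as shorter lengths divide the same count. They moved by over 1.5 times for 23 of 40 and 35 of 39 members, so the order of members depends on the length. The undivided mean was not among the alternatives for these ratios. As the deposited means may already be corrected for length, this limits every level and ratio per kb. Of 9 further ratios whose alternatives were chosen after seeing the data, that of B2m to all class I heavy chain genes rose above 1, at 1.03, with the coding length. In the 150 bases before the start alone, GAANNGAAA was in 5 members (4.17% of all genes), TTCNNNGAA in 0 (4.77%), GGGANTNCC in 3 (2.43%), CCAAT in 20 (27.7%) and TGACG in 10 (15.0%), as the window is shorter. Members with under 50% own sequence numbered 1 with words of 50 and of 100 bases and 4 with words of 31 bases.

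No paired analysis was possible because only means over all 6 libraries were used. For the same reason the planned count test and log-scale test of the ages were not run, nor were their alternatives of another tool, normalization, filter and pseudocount and of leaving out each replicate. Levels of members near the minimum of 10, and of those sharing sequence, are the least certain.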
